A study of Mus musculus with 6 samples.

Results

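The genes described are the constitutive subunits of the proteasome, 35 of the 31205 genes of the count table, in mouse DC2.4 dendritic cells and their PD-L1 knockout derivative. DC2.4 is an immortalized dendritic cell line. PD-L1, the product of Cd274, restrains T cells through the receptor PD-1. The members were taken by symbol: all genes named Psma, Psmb, Psmc or Psmd with a number, without the inducible or thymic catalytic subunits Psmb8, Psmb9, Psmb10 and Psmb11. That gave 15 genes of the core particle (8 Psma and 7 Psmb) and 20 of the regulatory particle (6 Psmc and 14 Psmd). The KO group held 3 RNA-seq libraries of DC2.4 cells with the genotype PD-L1 knockout, and the Control group held 3 libraries of DC2.4 cells with the genotype Control. No drug treatment is named for either group. The labels do not say whether the KO cells were 1 clone or whether libraries came from separate cultures, so the p-values rest on a spread among libraries that may be only technical.

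The proteasome is the protease that degrades ubiquitin-tagged proteins. Its barrel-shaped core particle has outer rings of alpha subunits, which gate the entrance, and inner rings of beta subunits, of which Psmb5, Psmb6 and Psmb7 carry the active sites. The regulatory particle caps the barrel: the Psmc ATPases of its base unfold substrates, and most Psmd proteins form the base scaffold, the ubiquitin receptors and the lid, which removes the ubiquitin chain. In antigen-presenting cells the core also makes peptides for MHC class I molecules, and interferon can replace its catalytic subunits by the inducible Psmb8, Psmb9 and Psmb10. Transcription of the subunit genes is known to be raised together by the factor NRF1, encoded by Nfe2l1, through antioxidant response elements, and CCAAT boxes, bound by NF-Y, occur in many of their promoters in human cells.

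Promoters are shown for the core genes whose motif matches illustrate these elements: the catalytic subunits Psmb5 and Psmb6, each with a match to the antioxidant response element core TGACNNNGC, and the structural subunit Psmb3, with a pair of CCAAT boxes. Each is the stretch of 250 bases that ends just before the RefSeq start in build GRCm38.p6, written along the gene's strand. Capitals mark the matches, searched on both strands.
Psmb5, minus strand, chr14:54617996-54618245: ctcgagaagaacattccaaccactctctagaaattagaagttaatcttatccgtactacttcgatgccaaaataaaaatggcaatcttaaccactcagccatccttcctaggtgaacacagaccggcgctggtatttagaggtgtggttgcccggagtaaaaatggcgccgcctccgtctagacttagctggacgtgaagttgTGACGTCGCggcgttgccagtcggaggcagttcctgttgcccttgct
Psmb6, plus strand, chr11:70525107-70525356: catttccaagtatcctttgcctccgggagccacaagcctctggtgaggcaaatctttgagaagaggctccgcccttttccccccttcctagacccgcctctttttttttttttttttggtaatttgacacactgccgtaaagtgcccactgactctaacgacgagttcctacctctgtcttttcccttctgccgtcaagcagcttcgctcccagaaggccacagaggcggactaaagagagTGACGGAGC
Psmb3, plus strand, chr11:97703184-97703433: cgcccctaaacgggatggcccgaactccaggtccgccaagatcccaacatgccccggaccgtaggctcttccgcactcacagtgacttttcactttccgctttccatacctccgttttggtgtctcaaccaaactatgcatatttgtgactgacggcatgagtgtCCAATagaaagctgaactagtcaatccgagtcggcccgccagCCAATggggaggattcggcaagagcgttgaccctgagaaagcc

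The match ended 38 bases before the start in Psmb5 and 0 bases before it in Psmb6, and the CCAAT boxes of Psmb3 ended 80 and 38 bases before its start. The RefSeq table held 30 promoters of 28 member genes. TGACNNNGC was found in 5 of the 30 (16.7%) and in 10.2% of all 32851 promoters of this length, and CCAAT in 11 of the 30 (36.7%) and in 33.8% of all promoters. Of the subunits called higher in KO (below), 2 of 14 promoters held TGACNNNGC and 7 of 14 CCAAT, against 3 of 16 and 4 of 16 promoters of subunits not called. No match of one motif overlapped a match of the other. The GENCODE start lies 27 bases upstream of the RefSeq start in Psmb5, 10 bases downstream of it in Psmb6 and 35 bases upstream of it in Psmb3, so these distances depend on the annotation. These are letter matches in a fixed window, with no measurement of binding here.

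In the KO libraries, transcripts of the core particle were 1.48 times as abundant in sum as in Control, and those of the regulatory particle 1.28 times, beside 1.11 times for the sum of all genes tested. All 35 subunits had a positive log2 fold change (KO minus Control), beside 51% of the 11453 genes tested, although Psmc3 and Psmd5 stood just below 0 when libraries were scaled by total counts alone. By edgeR's quasi-likelihood test at an adjusted p under 0.05, 16 of the 35 were higher in KO and 0 lower, beside 11.8% of all genes tested that were higher and 13.5% that were lower. The core particle had 10 of its 15 genes higher and the regulatory particle 6 of 20. All 35 passed the filter on low counts. The median log2 fold change was 0.55 for the core, 0.37 for the regulatory particle and 0.013 over all genes tested.

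Transcript length and single libraries moved these counts. Log2 fold changes over all genes tested were lower for genes with longer exons (Spearman's rho -0.49 across 11394 genes, which share libraries and are not independent replicates). The proteasome genes are short, with a median exon length of 1591 bases against 3214 over all genes tested. After removal of the dependence on exon length and GC content, library by library, 1 core gene, Psmb1, and 1 regulatory gene, Psmd2, were higher, beside 7.43% of all genes, and the medians were 0.15 and 0.11, with Psma1, Psmb7 and Psmc3 below 0. With the replicate number as a block added, 1 core and 0 regulatory genes were higher, beside 7.12%. With scaling by total counts alone, 3 and 1 were higher, beside 5.82%, and without a filter on low counts 11 and 6, beside 8.69%. Without KO 1, 15 core and 14 regulatory genes were higher, beside 20% of all genes. Without KO 2 and without KO 3, 2 core genes (Psmb1 and Psmb6) and 0 regulatory genes were higher, beside 3.4% and 4.6% of all genes. Without Control 1, 5 and 4 were higher, beside 10% of all genes, without Control 2 Psmb1 alone, beside 1.43%, and without Control 3, 3 and 1, beside 5.74%. All 35 log2 fold changes were positive in each of the 6 fits that left out 1 library.

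The libraries held 13501776, 16323812 and 21133688 counts in KO 1 to 3 and 10918498, 15909256 and 23250065 in Control 1 to 3. Cd274, which encodes PD-L1, had 102, 81 and 163 counts in KO 1 to 3, against 52, 99 and 171 in Control 1 to 3 (log2 fold change 0.28, adjusted p = 0.415), so the counts do not check the KO label and each direction rests on it. Of 9 myeloid and dendritic markers, 8 were detected in all libraries, among them Ptprc, Spi1 and Irf8, while the MHC class II gene H2-Ab1 had 4 counts in Control 2 and 0 elsewhere. Of the 8 tested, 0 were higher and 1, Csf1r, was lower (log2 fold change -0.72, adjusted p = 0.0143). The 8 markers of other cells summed to 2 to 16 counts, except for 3649 in Control 2, of which Col1a1 held 2235 and Fn1 1382. KO 1 stood apart on the second principal component of log2 CPM (31.6, against -8.96 and -12.3 in KO 2 and KO 3). Control 1 was likewise the highest of its group there (12.1, against -6.32 and -16.1 in Control 2 and Control 3). The part of these features in the results was not tested. In bulk libraries, more transcript per cell and more cells of a kind cannot be told apart.

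Levels are given as CPM, reads of a gene per 1e+06 reads of the library, with TMM scaling. The summed level of the 15 core genes was 3414, 4855 and 4261 CPM in KO 1 to 3, against 3022, 2581 and 2839.8 CPM in Control 1 to 3. That of the 20 regulatory genes was 4292, 5113 and 5090.5 CPM in KO 1 to 3, against 4049, 3520.0 and 3713 CPM in Control 1 to 3. Every KO library lay above every Control library in both sums, with KO 1 nearest to Control. The sum of all genes tested separated the groups likewise. It was 1018650, 1095670 and 1050630 CPM in KO 1 to 3, against 976229, 941251 and 928089 CPM in Control 1 to 3. The ratio of the core sum to the regulatory sum was 0.795, 0.950 and 0.837 in KO 1 to 3, against 0.746, 0.733 and 0.765 in Control 1 to 3, so these groups did not overlap either. No test was made on sums, because the members are not replicates of a condition.

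The KO libraries differed among themselves in a patterned way. The median member of the core stood 0.21, 0.77 and 0.55 log2 units above its Control mean in KO 1, 2 and 3, and the median regulatory member 0.19, 0.52 and 0.43. KO 2 was the highest KO library for 23 of the 35 genes and KO 1 the lowest for 30. In the alpha ring, KO 2 was the highest and KO 1 the lowest for 8 of 8 genes. The alpha subunits of KO 1 were close to Control (summed 1615, 2598 and 2157 CPM in KO 1 to 3, against 1590.0, 1425 and 1511 CPM in Control 1 to 3), while its beta subunits were above all Control libraries (summed 1799, 2257 and 2104 CPM in KO 1 to 3, against 1432, 1156 and 1329 CPM in Control 1 to 3). In KO 1, 5 of 8 alpha and 7 of 7 beta subunits exceeded the highest Control, beside 3883 of the 11453 genes tested.

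**Figure D1:**
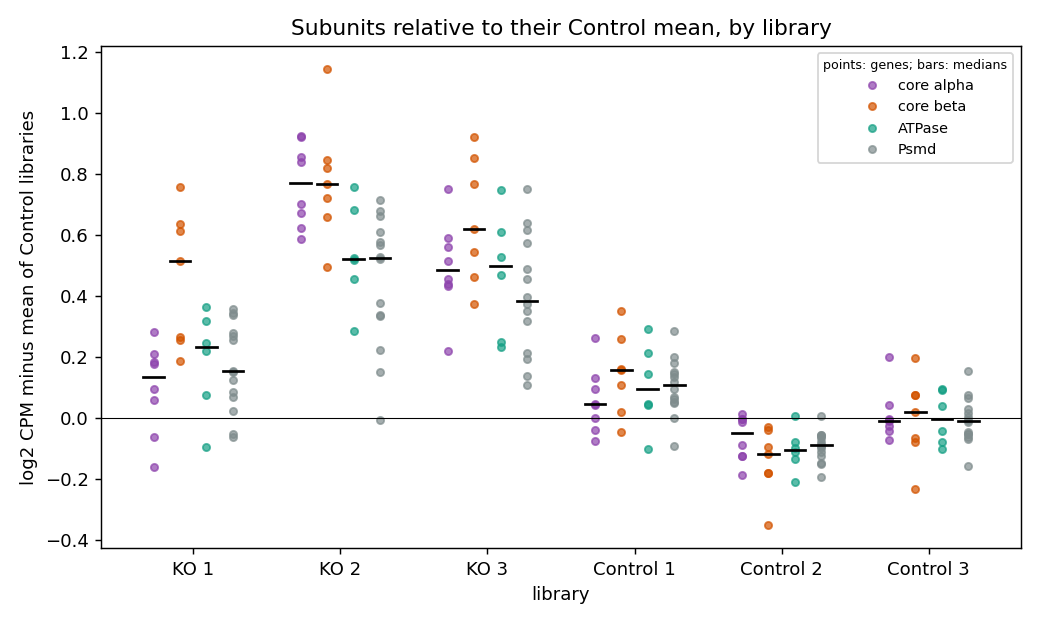
Log2 CPM of each of the 35 subunits minus the mean of its 3 Control libraries (y axis) in each library (x axis), with points for genes and bars for the median of the alpha, beta, ATPase and Psmd genes. In KO 2 and KO 3 nearly all genes lie above their Control mean, and in KO 1 the beta subunits (median 0.51) stand above the alpha subunits (0.13).

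In the main fit, the 3 subunits with the largest log2 fold changes, Psmb1, Psmb4 and Psmb6, all belong to the beta ring. With the length and GC trend removed, Psmb1 was followed by the alpha subunits Psma2 (0.41) and Psma3 (0.40). Psmb4 then stood at 0.34 and Psmb6 at 0.18. In the main fit 6 of the 7 beta genes were higher, beside 11.8% of all genes tested. All 7 had every KO library above every Control library, a separation seen for 21.1% of all genes tested. The gene with the largest log2 fold change of all 35 was Psmb1 (chromosome 17, 15475021 to 15499751), a structural subunit, with 268, 382 and 311 CPM in KO 1 to 3, against 167, 169 and 182 CPM in Control 1 to 3. Its lowest KO library stood well above the highest Control library, and the fitted level in KO was 1.86 times that in Control (log2 fold change 0.89, SE 0.15, adjusted p = 0.00486). It averaged 320.2 ± 57.4 CPM in KO and 172 ± 8.06 CPM in Control (SD, n = 3 each). Psmb1 passed the test in 16 of 16 alternative settings, the only member to do so, and its log2 fold change with length and GC removed was 0.83 (SE 0.12). That correction used its exon length over annotated transcripts, 3427 bases, while its principal annotated transcript has 1758 bases. The part of this choice of length in the value was not tested. Chromosome 17, on which it lies, had a median log2 fold change of 0.38 over 599 genes tested, the highest of the chromosomes. Among the 9 genes tested within 500 kb of Psmb1, the median was 0.051, 0 were higher and 0 lower, and Tbp, the TATA-binding protein gene that starts beside it on the other strand, stood at 0.35 (adjusted p = 0.0725).

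Psmb4, a structural subunit on chromosome 3, had the second largest change, with 456, 573 and 604 CPM in KO 1 to 3, against 355, 249.6 and 366 CPM in Control 1 to 3 (log2 fold change 0.75, SE 0.18, adjusted p = 0.0165). The groups did not overlap, although Control 2 was low. Psmb3, another structural subunit, had 222, 332 and 332 CPM in KO 1 to 3, against 198, 183 and 205 CPM in Control 1 to 3 (log2 fold change 0.60, SE 0.17, adjusted p = 0.0298). Psmb2 had 148, 194 and 189 CPM in KO 1 to 3, against 132, 119 and 117 CPM in Control 1 to 3 (log2 fold change 0.53, SE 0.14, adjusted p = 0.025). For both, KO 1 was the lowest KO library and still above the highest Control. Psmb4 passed in 11, Psmb2 in 9 and Psmb3 in 8 of the 16 alternative settings.

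Both promoters shown above with an antioxidant response element match belong to catalytic subunits that were higher in KO. The other member promoters with this match, those of Psmc6, Psmd9 and Psmd12, belong to subunits that were not called. The RefSeq promoters did not include the catalytic subunit Psmb7. Psmb5 (chromosome 14, 54614119 to 54618022), the chymotrypsin-like subunit and the main target of proteasome inhibitor drugs, had 232, 268 and 209 CPM in KO 1 to 3, against 193, 139 and 129 CPM in Control 1 to 3. KO 2 was the highest library and Control 1 the highest of its group, below KO 3 (log2 fold change 0.62, SE 0.18, adjusted p = 0.0298). Psmb6 (chromosome 11, 70525367 to 70527858), the caspase-like subunit, had 249, 243 and 215 CPM in KO 1 to 3, against 176, 129.8 and 139 CPM in Control 1 to 3. Unlike most members it was highest in KO 1, and its groups did not overlap (log2 fold change 0.67, SE 0.15, adjusted p = 0.0133). Psmb6 passed in 13 of the 16 alternatives and Psmb5 in 9. Psmb7 (chromosome 2, 38588036 to 38644087), the trypsin-like subunit, had 225, 266 and 244 CPM in KO 1 to 3, against 211, 166 and 191 CPM in Control 1 to 3. Control 1 came close to KO 1, and although the groups did not overlap it did not pass the test (log2 fold change 0.37, SE 0.14, adjusted p = 0.071). Part of the Psmb7 exons, 405 bases, overlaps exons of Nek6 on the other strand, and no strand setting is given, so reads of the pair cannot be told apart there. The same holds for Psmd9 with Gm26745 (1849 bases), Psmd13 with Sirt3 (342), Psmd1 with Htr2b (252), Psmc3 with Slc39a13 (215), Psma4 with AY074887 (114), Psma5 with 1700010K24Rik (60) and Psmd3 with Gm12356 (17). On the same strand, Psmd1 overlaps Gm21972 (301 bases) and Psmb5 overlaps Mir686 (109 bases).

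**Figure D2:**
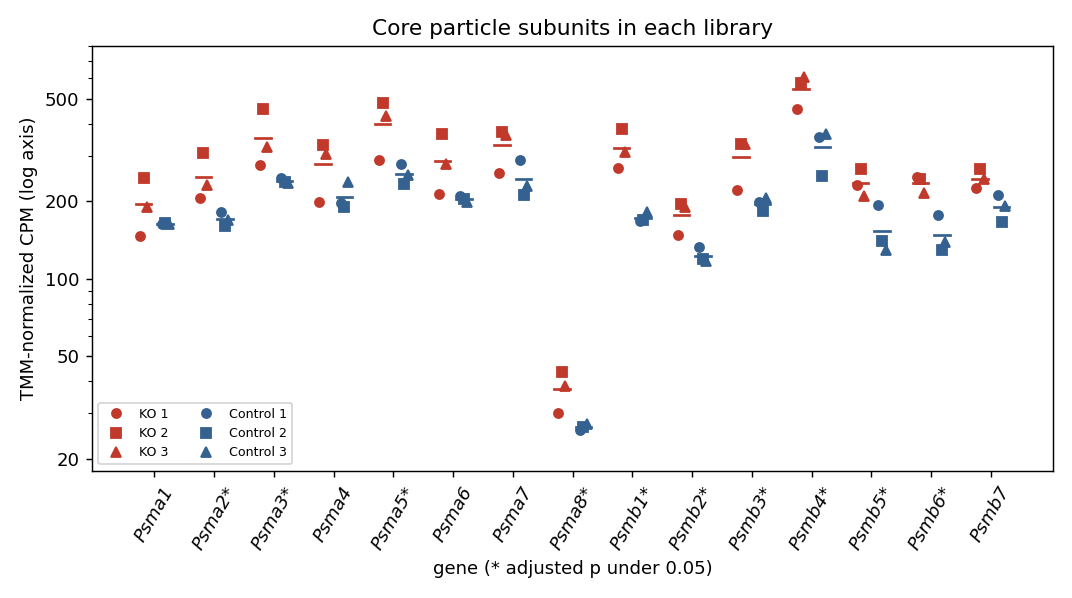
TMM-normalized CPM (log axis) of the 15 core particle genes in each library, KO left and Control right of each tick, with bars for group means and an asterisk for an adjusted p under 0.05. All 7 beta genes have their KO points above their Control points, while KO 1 falls among or below the Control points for Psma1, Psma4 and Psma7.

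Of the 8 alpha genes, 4 were higher, beside 11.8% of all genes tested. For 5 of the 8, every KO library lay above every Control library, beside 21.1% of all genes tested. Psma5 had 288, 481 and 428 CPM in KO 1 to 3, against 278, 233 and 253 CPM in Control 1 to 3 (log2 fold change 0.65, SE 0.19, adjusted p = 0.0317). KO 2 and KO 3 were far above Control, and KO 1 lay just over Control 1. Psma3 had 277, 455 and 323 CPM in KO 1 to 3, against 247, 237 and 235 CPM in Control 1 to 3 (log2 fold change 0.55, SE 0.18, adjusted p = 0.0462). Psma2 had 206, 307 and 230.1 CPM in KO 1 to 3, against 181, 159.7 and 169 CPM in Control 1 to 3 (log2 fold change 0.55, SE 0.16, adjusted p = 0.0355). Both were highest in KO 2, with KO 1 the nearest to Control. Psma8, an alpha subunit known from the mouse testis, was detected at a low level, with 30.1, 43.6 and 38.2 CPM in KO 1 to 3, against 25.9, 26.5 and 27.4 CPM in Control 1 to 3 (log2 fold change 0.49, SE 0.16, adjusted p = 0.0467). No alpha subunit passed in more than 8 of the 16 alternatives.

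Psma1 had the smallest log2 fold change of the core, with 146, 246 and 191 CPM in KO 1 to 3, against 163, 165 and 162 CPM in Control 1 to 3 (log2 fold change 0.25, SE 0.18, adjusted p = 0.318). KO 2 was high and KO 1 below all Control libraries, so the groups overlapped. With the length and GC trend removed its value was -0.16, below 0. Psma4, Psma6 and Psma7 did not pass either (log2 fold changes 0.42, 0.49 and 0.44, adjusted p = 0.133, 0.075 and 0.0914). For these, KO 2 and KO 3 exceeded every Control library and KO 1 stood at the level of Control.

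Among the 6 ATPases of the base, 3 were higher, beside 11.8% of all genes tested. Psmc5 had 130.5, 171 and 170.5 CPM in KO 1 to 3, against 104, 95.7 and 104 CPM in Control 1 to 3 (log2 fold change 0.64, SE 0.14, adjusted p = 0.0133). Its KO libraries all exceeded its Control libraries, and it passed in 11 of the 16 alternatives. Psmc1, the most abundant ATPase transcript per length, had 405, 492 and 523 CPM in KO 1 to 3, against 353, 311 and 365 CPM in Control 1 to 3 (log2 fold change 0.47, SE 0.14, adjusted p = 0.0386). Psmc2 had 192, 247 and 222 CPM in KO 1 to 3, against 188, 133 and 146 CPM in Control 1 to 3 (log2 fold change 0.50, SE 0.16, adjusted p = 0.0478). KO 1 lay only slightly above Control 1 for Psmc2, the called member nearest to the threshold. Psmc4 and Psmc6 did not pass (0.38 and 0.29), nor did Psmc3, the ATPase with the smallest log2 fold change, with 201, 262 and 252 CPM in KO 1 to 3, against 237, 200.1 and 208 CPM in Control 1 to 3 (log2 fold change 0.15, SE 0.14, adjusted p = 0.467). Its groups overlapped, KO 1 standing below Control 1 and Control 3.

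Of the 14 Psmd genes, 3 (21.4%) were higher, beside 11.8% of all genes tested. Psmd4, a ubiquitin receptor, had the largest log2 fold change of them, with 323, 441 and 452 CPM in KO 1 to 3, against 295, 242 and 271 CPM in Control 1 to 3 (log2 fold change 0.59, SE 0.16, adjusted p = 0.0251). Psmd2 (chromosome 16, 20651652 to 20663414), a large scaffold subunit of the base, had 521, 536 and 579 CPM in KO 1 to 3, against 426, 414 and 397 CPM in Control 1 to 3 (log2 fold change 0.40, SE 0.12, adjusted p = 0.0368). Its KO libraries were close together, and it was the regulatory gene still higher with the length and GC trend removed (0.33, adjusted p = 0.0458). Psmd1, the other large scaffold subunit, did not pass (0.16, adjusted p = 0.411). Psmd10, an assembly chaperone of the base, had 34.6, 40.5 and 35.3 CPM in KO 1 to 3, against 25.4, 26 and 30.3 CPM in Control 1 to 3 (log2 fold change 0.43, SE 0.14, adjusted p = 0.0474). The other base chaperones, Psmd5 and Psmd9, did not pass, and Psmd5 had the smallest log2 fold change of all 35, with 89.5, 118 and 103 CPM in KO 1 to 3, against 98.1, 87.3 and 95.5 CPM in Control 1 to 3 (log2 fold change 0.15, SE 0.14, adjusted p = 0.456).

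In the lid, 0 of 8 genes passed by edgeR in the main fit, and 4 had an unadjusted p under 0.05, beside 40.9% of all genes tested. By DESeq2's Wald test 2 (Psmd7 and Psmd12) were higher, beside 14.6% of all genes, and by limma-voom 0 were. Psmd7 and Psmd12 lay just short of the threshold. Psmd7 had 222, 319 and 297 CPM in KO 1 to 3, against 226, 184 and 190.0 CPM in Control 1 to 3 (log2 fold change 0.48, SE 0.16, adjusted p = 0.0543). Psmd12 had 166, 248 and 241 CPM in KO 1 to 3, against 164, 151 and 156 CPM in Control 1 to 3 (log2 fold change 0.48, SE 0.16, adjusted p = 0.0554). In both, KO 1 was at the level of Control and KO 2 and KO 3 above it. The deubiquitinase Psmd14 had a log2 fold change of 0.33 (adjusted p = 0.099), with non-overlapping groups. Psmd3, Psmd6, Psmd8, Psmd11 and Psmd13 lay between 0.21 and 0.43. Without the length and GC correction, the median of the lid was 0.33, beside 0.62 for the beta ring, 0.49 for the alpha ring and 0.42 for the ATPases.

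**Figure D3:**
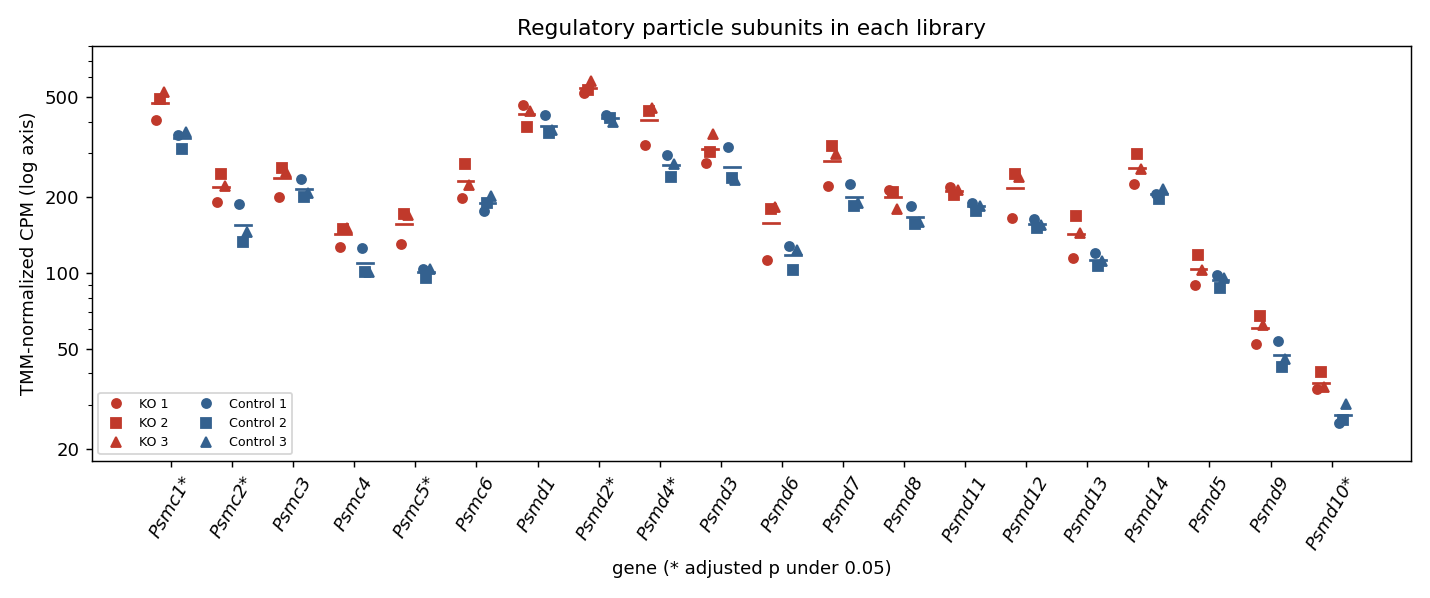
TMM-normalized CPM (log axis) of the 20 regulatory particle genes in each library, KO left and Control right of each tick, with bars for group means and an asterisk for an adjusted p under 0.05. The groups separate, with KO above Control, for 10 of the 20 genes, beside 21.1% of all genes tested. The base chaperones Psmd5, Psmd9 and Psmd10 have the lowest means.

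**Figure D4:**
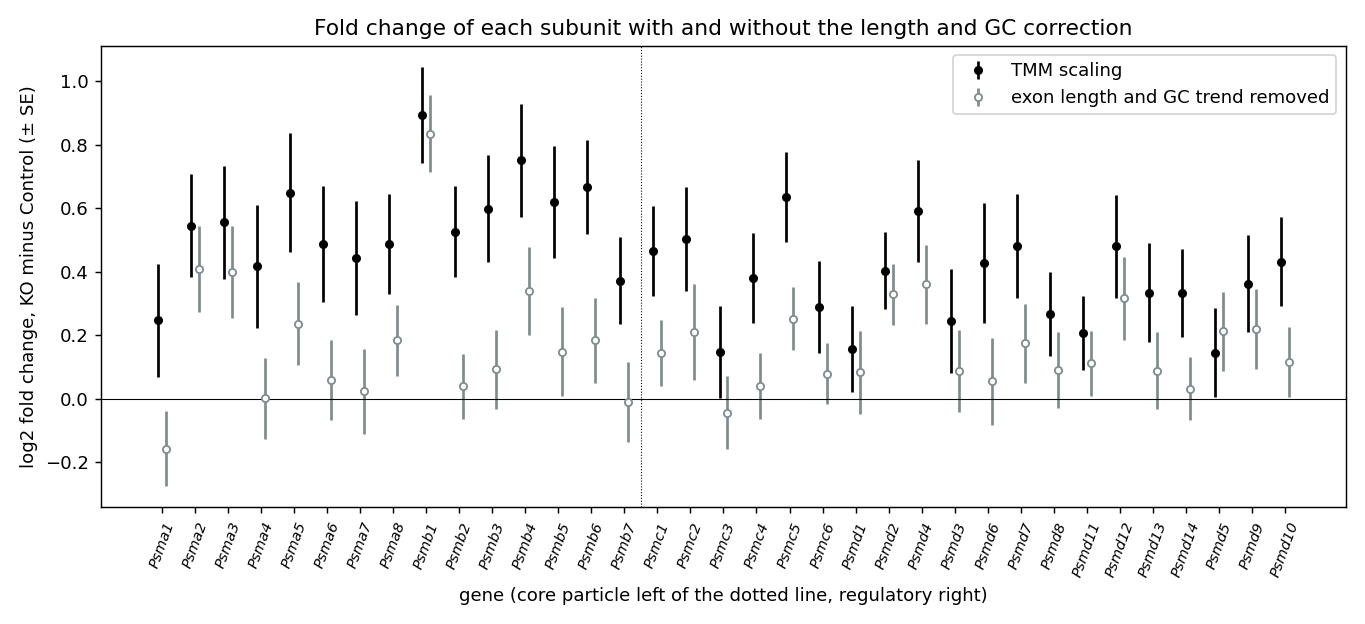
Log2 fold change of each subunit (KO minus Control, y axis, bars are SE) with TMM scaling (filled) and after removal of the dependence on exon length and GC content (open). Filled points are all above 0, and open points lie nearer to 0 for every gene but Psmd5, with Psmb1 (0.89 and 0.83) the highest in both.

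Levels between genes were compared as mean CPM per kilobase of the principal annotated transcript. Within the core, the lowest transcript was Psma8, at 22.0 CPM per kilobase in KO and 15.7 in Control, and the highest Psmb4, at 460.1 in KO and 274 in Control. Without Psma8 the other 14 core genes spanned a 5.40-fold range in KO and a 4.68-fold range in Control. The ATPases spanned a 3.01-fold range in KO and 2.83-fold in Control, and the lid genes 2.46-fold in KO and 2.36-fold in Control. The chaperones Psmd9, Psmd5 and Psmd10 stood apart from the structural subunits, at 23.3, 23.5 and 25.7 CPM per kilobase in KO and 18.2, 21.3 and 19.0 in Control. The lowest structural subunit of the regulatory particle, Psmd13, was at 71.7 in KO and 56.9 in Control. These levels depend on the transcript chosen for the length.

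Core genes were shorter than regulatory genes, with a median exon length of 1180 bases against 2016.5. Across the 35 members, log2 fold change and exon length had a Spearman's rho of -0.42, as a description over genes that share the same 6 libraries. Near-identical transcripts (at least 95% identity over at least 200 bases, outside overlapping genes) were found for 8 of the 35 genes, among them Psma3, Psma5, Psmb3 and Psmb5, most of them copies annotated as processed pseudogenes. Of the 16 such copies, 1 has a row in the count table, so reads of these 8 genes may have been split or dropped.

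Among genes whose products build the core, 4 of 5 assembly factors were higher and 0 lower, beside 11.8% and 13.5% of all genes tested. Psmg1, an alpha-ring assembly chaperone, had 58.3, 83.5 and 68.3 CPM in KO 1 to 3, against 41.5, 32.2 and 35.5 CPM in Control 1 to 3 (log2 fold change 0.95, SE 0.17, adjusted p = 0.00585). Pomp, the maturation factor of the core, had 149, 237 and 194 CPM in KO 1 to 3, against 132, 112 and 133 CPM in Control 1 to 3 (log2 fold change 0.62, SE 0.17, adjusted p = 0.0294). Of the 5, these 2 passed with the length and GC trend removed (0.50 and 0.82), beside 7.43% of all genes that were higher. For Pomp, whose value rose with the correction, the exon length used was 5035 bases, while its principal annotated transcript has 1579. For Psmg1 both lengths are 1044 bases. The part of this choice of length in the result for Pomp was not tested. Psmg3 and Psmg4 rose as well (0.81, adjusted p = 0.0218, and 0.69, adjusted p = 0.0168), and Psmg2 did not pass (0.44, adjusted p = 0.0941). Without Control 2, Psmg1 alone of the 5 passed (adjusted p = 0.0403), beside 1.43% of all genes that were higher.

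Of the inducible catalytic subunits, Psmb8 was higher, with 70.1, 75.2 and 81.3 CPM in KO 1 to 3, against 39.6, 32.5 and 43.5 CPM in Control 1 to 3 (log2 fold change 0.97, SE 0.15, adjusted p = 0.00314). Psmb9 and Psmb10 did not pass (0.48, adjusted p = 0.116, and 0.45, adjusted p = 0.1), and Psmb11 had too few counts to be tested. Exons of Psmb8 share 498 bases with the antisense gene Gm20496, and exons of Psmb9 share 212 bases with Tap1 on the other strand, so part of their reads cannot be told apart either. Per kilobase, Psmb8 made up 14.3%, 13.4% and 17.7% of the sum of Psmb8 and its constitutive counterpart Psmb5 in KO 1 to 3, against 10.2%, 11.4% and 15.7% in Control 1 to 3, and these ranges overlapped. Psmb9 made up 1.96% to 3.07% of its pair with Psmb6 in KO and 2.43% to 3.29% in Control.

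Of the other regulatory subunits, the lid protein gene Sem1 was higher (0.68, adjusted p = 0.0425) and the ubiquitin receptor gene Adrm1 did not pass (0.33, adjusted p = 0.22). Of 5 tested genes for core activators and the inhibitor Psmf1, 1 (20%) was higher, the activator subunit Psme2 (0.50, adjusted p = 0.0367). Of 12 proteasome-bound factors, 2 (16.7%) were higher and 0 lower, with a median log2 fold change of 0.063. Over all genes tested, 11.8% were higher and 13.5% lower. The 2 factors were the deubiquitinase Uchl5 (0.61, adjusted p = 0.029) and Zfand5, a proteasome-binding zinc finger protein (0.53, adjusted p = 0.0448). Without Control 2, 0 of these 19 genes passed, a setting in which few genes passed at all (1.43%, above). With the length and GC trend removed, Zfand5 passed (0.84, adjusted p = 0.0127), the other 3 genes called here did not, and Ecpas, a proteasome adaptor gene at -0.015 without the correction, also passed (0.46, adjusted p = 0.0268).

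Of 15 genes for the NRF1 route and NF-Y, 0 passed by edgeR in the main fit. There 4 (26.7%) had an unadjusted p under 0.05, beside 40.9% of all genes tested. By edgeR, 2 were lower with upper quartile scaling, with total counts alone, without a filter and with the replicate block. With the length and GC trend removed, 0 were lower. In the list, 2 were lower by DESeq2's Wald test and 1 by limma-voom. The share of all genes that were lower is not given for these other settings. Nfe2l1 itself had 264, 113 and 124 CPM in KO 1 to 3, against 186, 156 and 132 CPM in Control 1 to 3 (log2 fold change 0.08, SE 0.29, adjusted p = 0.859). KO 1 was the highest of all 6 libraries and KO 2 and KO 3 were the lowest. Without KO 1, Nfe2l1 was lower, at -0.42 (adjusted p = 0.0448). In that fit 4 of the 15 genes were higher, beside 20% of all genes tested. A further 3 were lower, for which no share over all genes is given. The 3 lower were Nfe2l1, Ddi2, a protease that activates NRF1, and the NF-Y subunit gene Nfya (-1.14, adjusted p = 0.000662). The 4 higher were the ubiquitin ligase gene Syvn1, Ufd1, Maff and Nfyc.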

How the data were processed

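Bulk RNA-seq measured 3 KO and 3 Control libraries, prepared with KAPA Hyper Prep reagents per the labels' protocols. Trimmomatic 0.39, STAR 2.7.5c, StringTie 2.1.7 and build mm10 appear in the submitters' processing notes, without their roles. The authors deposited unscaled whole-number counts of reads per gene. How reads were counted, with which annotation and strand setting, is not given in the sources used here. Columns were matched to samples by name. Replicate libraries differed beyond sampling noise. Each was counted as 1 sample, although that spread does not show whether they came from separate cultures.

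Of 31205 genes, 11453 passed filterByExpr. With TMM scaling, the KO-minus-Control contrast was tested in edgeR 4.0.16 (quasi-likelihood F test, R 4.3.3); p-values are two-sided and Benjamini-Hochberg adjusted over every gene tested, with a threshold of 0.05. SE is that of the log2 fold change. The biological coefficient of variation over all genes was 17.5%. The members and lists were chosen with earlier results of these data known. Values in every library are given for each called member, the catalytic subunits, and the largest and smallest log2 fold change of the core, the ATPases and the Psmd genes; of the other lists, at most 4 called genes each. A list of related genes is not reported here. GENCODE M21 (GRCm38, the same build) gave gene positions, exon length and GC content, known for 99.5% of the genes tested. Promoters came from RefSeq, and near copies from a blastn search of GENCODE transcripts.

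Other settings were scaling by DESeq2 size factors, by upper quartiles or by total counts; no filter, or at least 1 CPM in at least 3 libraries; the tests of DESeq2 1.42.0 (Wald) and of limma-voom (limma 3.58.1); a block for the replicate number; offsets from a loess fit (span 0.3) on exon length and GC in each library; and each library left out. In simulated counts with the same spread setting for all genes, 86% of 100 genes changed by a log2 value of 1 were called, among 11478 genes tested. Of the calls, 6.53% were unchanged genes. Smaller changes were not simulated, and the largest log2 fold change of the members was 0.89, so this does not show how often changes of their size are called.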

Additional observations from a re-analysis of the deposited data

How the results depend on the processing

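The counts of subunits called higher were 10 of the core and 6 of the regulatory particle. They stayed within 1.5 times under DESeq2 size factors, upper quartile scaling, both other filters, limma-voom and DESeq2's Wald test. Scaled by total counts alone, which put the median of all genes at -0.14, they were 3 and 1, with 5.82% of all genes higher. With the length and GC trend removed they were 1 and 1, and the medians 0.15 (core) and 0.11 (regulatory). With that correction and the replicate block they were 1 and 0, and the medians 0.16 and 0.11. Leaving out 1 library gave 1 to 15 core and 0 to 14 regulatory genes, with core medians of 0.36 to 0.64 and regulatory medians of 0.30 to 0.45. The fewest calls came without Control 2 (1 and 0), KO 2 (2 and 0) and KO 3 (2 and 0), and 3 and 1 were called without Control 3.

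The log2 fold changes below 0 were those of Psmc3 (-0.0075) and Psmd5 (-0.012) with total counts alone, of Psma1 (-0.16), Psmb7 (-0.0094) and Psmc3 (-0.044) with the length and GC trend removed, and of Psma1 (-0.16), Psma4 (-0.0066), Psmb7 (-0.0018) and Psmc3 (-0.048) with the block added. None of these was called in the main or the alternative setting. The cause was not tested.

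Whether the shared replicate numbers pair the libraries cannot be decided from 3 libraries a group. Deviations from the group means correlated at 0.16, -0.10 and 0.36 for numbers 1, 2 and 3. On the second principal component, replicate 1 had the highest value of each group (31.6 in KO 1 and 12.1 in Control 1). With the replicate block alone, 10 core and 4 regulatory genes were higher, beside 12.9% of all genes tested.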
